A study of Mus musculus with 12 samples.

Results

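The testis-specific serine kinases (TSSKs), their substrate Tsks and the calmodulin-dependent kinase Camk4 were followed in mouse round spermatids with and without the RNA-binding protein IGF2BP3. The set is a list of named genes, with no threshold on any measured value: Tssk1, Tssk2, Tssk3, Tssk4, Tssk5, Tssk6, Tsks and Camk4. All 8 were present among the 28643 gene symbols used, and all 8 passed the filter on low values in every comparison. Round spermatids were sorted by flow cytometry from testes of 8-week-old males, with cycloheximide present throughout to hold ribosomes on their mRNAs. Heterozygous males (Igf2bp3+/-) were the control, so that both groups carried at least 1 disrupted allele, and homozygous males (Igf2bp3-/-) were the knockout, a germline frameshift made with Cas9 in C57BL/6 zygotes and thus present in every cell of the animal. Each genotype was profiled as total RNA (RNA-seq) and as RNA from sucrose gradient fractions in which an mRNA carries 4 or more ribosomes (RNC-seq), with 3 replicates in each of the 4 groups. The study's methods state that knockout males with impaired fertility were selected for this part of the work. The contrast thus holds that selection as well as genotype. By the study's methods cells were collected mouse by mouse and replicates were biological, while the labels tie no library to an animal. Levels are FPKM as deposited, a fragment density corrected for transcript length and library size.

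TSSKs form a small family of serine/threonine kinases that are made almost only after meiosis, when haploid spermatids reshape their nucleus and build the flagellum. Their mRNAs appear in round spermatids, and many spermatid mRNAs are stored in silent ribonucleoprotein particles before they enter polysomes. Polysomal RNA is thus a useful second readout beside total RNA. TSSK1 and TSSK2 bind and phosphorylate TSKS, a spermatid protein found at the centrioles. TSSK4 phosphorylates ODF2 of the outer dense fibres, TSSK6 acts in the replacement of histones by protamines with the help of the co-chaperone TSACC, and CaMKIV, the product of Camk4, phosphorylates protamine 2.

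Tssk1 (ENSMUSG00000041566) and Tssk2 (ENSMUSG00000045521) lie in tandem on the plus strand, at chr16:17894223-17897922 and chr16:17898637-17900024 of GRCm38 (GENCODE M21), 714 bases apart. Each is a single exon with the entire coding sequence inside it, and 856 of 1045 aligned coding bases, or 81.9%, were identical. Between the other pairs of TSSK genes the identity ran from 61.4% to 67%. The first 60 coding bases of the tandem pair are printed to show how far reads can be told apart, with capitals at the 20 positions where the genes differ:

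Tssk1: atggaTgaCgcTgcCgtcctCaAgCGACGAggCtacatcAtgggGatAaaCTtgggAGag

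Tssk2: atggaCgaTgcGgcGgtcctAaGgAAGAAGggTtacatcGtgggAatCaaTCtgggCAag

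Of all stretches of 50 bases, 9.34% in Tssk2 and 3.83% in Tssk1 also occurred in another transcript, for Tssk2 only in Tssk1, so most reads of either gene had a single source. The start codons are printed because polysome loading is compared below, with ATG in capitals, 12 leader bases before it and 3 coding bases after it:

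Tssk1: actcccggcaccATGgat

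Tssk2: gctcctggcagcATGgac

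Tssk3: gcgctacacagcATGgag

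Tssk4: aagcccaacatcATGggg

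Tssk5: gccctgccttccATGagg

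Tssk6: ccgggcgccaccATGtcg

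Tsks: gccccccgcaccATGgca

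The ATG begins at chr16:17894353 for Tssk1, chr16:17898735 for Tssk2, chr4:129490606 (minus strand) for Tssk3, chr14:55650349 for Tssk4, chr15:76374684 (minus strand) for Tssk5, chr8:69902308 for Tssk6 and chr7:44943284 for Tsks. With the A of ATG counted as 1, a purine stood 3 bases before it in 7 of the 8 genes, against 83.9% of 20037 coding genes of the annotation. Tssk5 was the exception, with a T there. A G directly followed ATG in 5 of the 8 genes, against 49.3% of coding genes. At least 1 further ATG lay in the leader of 6 of the 8 genes, against 54.1% of coding genes, and Tssk3 had 8 of them in its leader of 416 bases. These letters are a description of the annotated transcripts, and their part in loading was not tested.

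The sort was checked on marker genes. All 6 round spermatid markers summed (Acrv1, Spaca1, Catsper3, Lrriq1, Izumo1 and Spag6) were above 1 FPKM in every library, and their sum ran from 635 to 1006 FPKM, while 7 spermatogonial markers together reached 8.04 to 11.5 FPKM. Markers of late spermatids, which also come on in round cells, summed to between 8444 and 21275 FPKM, and the 7 spermatocyte markers to between 510 and 758 FPKM. Igf2bp3 itself was at 36.7 ± 2.9 FPKM (SD, n = 3) in Igf2bp3+/- RNA-seq and 31.9 ± 0.54 in Igf2bp3-/- RNA-seq, but a frameshift need not lower the transcript, so this level does not check the labels. Read counts were not used here and depth is unknown. The smallest steps between low values gave a relative depth of 0.366 to 1 of the deepest library, which was replicate 1 of Igf2bp3-/- RNA-seq, and about 108 to 1040 fragments for Tssk5, 305 to 759 for Camk4 and 1960 or more for each of the other genes.

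In total RNA of the control, Tsks was the most abundant of the genes, and 6 of the 8 stood between the 93.3 and the 99.2 percentile of expressed genes by FPKM. Tsks, the substrate, stood at 338, 334 and 358 FPKM in the 3 Igf2bp3+/- RNA-seq libraries, which placed it 159th of 20494 genes with a mean above 0.1. Tssk2 followed with 260, 279 and 275 FPKM, and Tssk6 with 192, 200 and 194 FPKM. The libraries of each gene lay close together, and no library of one of these 3 genes reached the range of the next. Below these came Tssk3, a kinase needed for male fertility, with 146, 150 and 127 FPKM. Tssk1 was at 76, 81.1 and 75.7 FPKM and Tssk4, which acts on the flagellum, at 71.8, 71.3 and 69.2 FPKM. The last pair stood well apart from the rest. Tssk5, the least studied kinase of the family, was far lower at 17.5, 12.2 and 12.6 FPKM, and Camk4 lowest at 6.18, 6.28 and 6.08 FPKM. The span from Tsks to Camk4 was 55.5-fold, and the ranges of neighbours in this order did not overlap.

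The order of means held in Igf2bp3-/- RNA-seq except that Tssk4 and Tssk1 changed places. There Tsks (310, 343 and 333 FPKM) and Tssk2 (266, 303 and 325 FPKM) overlapped, as did Tssk4 and Tssk1. In the polysome fractions of the control Tssk2 took first place, at 373, 384 and 357 FPKM, and Tsks, with 177, 239 and 212 FPKM, overlapped with Tssk6 above it and Tssk3 below it. Tssk5 fell to last place there, below Camk4. The level of Tssk1 depends on its annotated length: the GENCODE exon has 3700 bases, of which 2475 follow the coding sequence, while the RefSeq gene spans 1451. Spread over the shorter span, the same fragments would give 198 ± 7.7 FPKM (n = 3) in place of 77.6 ± 3 in control RNA-seq, close to Tssk6 and below Tssk2 (271 ± 10). Ratios between libraries of the same gene do not move with that length.

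**Figure D1:**
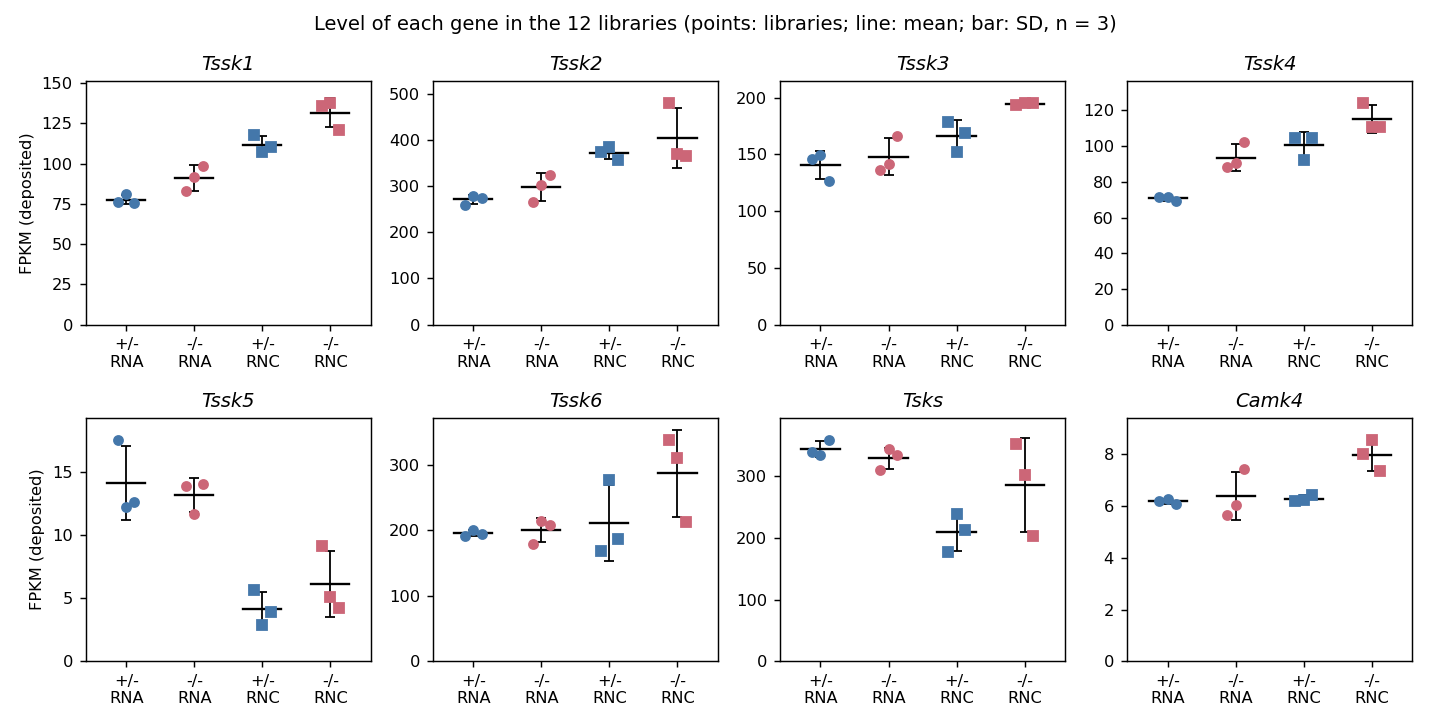
Deposited FPKM of each gene on a linear axis from 0, in RNA-seq (circles) and RNC-seq (squares) of Igf2bp3+/- (blue) and Igf2bp3-/- (red); points are libraries, the line is the mean and the bar the SD of 3. Tssk5 and Tsks lie lower in RNC-seq than in RNA-seq of the control, while all 3 control RNC-seq libraries of Tssk1, Tssk2 and Tssk4 lie above their RNA-seq libraries.

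To see how these mRNAs stood on polysomes relative to other genes, RNC-seq was compared with RNA-seq within the control. FPKM is scaled within each library, so a ratio between the assays is not the fraction of an mRNA on polysomes. Tssk5 and Tsks were lower on polysomes than in total RNA, and Tssk1, Tssk2 and Tssk4 were higher on the deposited scale. With limma on log2(FPKM + 0.1), 2 of the 8 genes passed an adjusted p of 0.05 as lower, beside 25.1% of all genes tested, and 3 of the 8 as higher, beside 18.6% of all. The median change of the 8 was 0.16 on the log2 scale and that of all genes was -0.09. With 8 genes these shares describe the genes themselves, and the members moved in both directions.

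Tssk5 had the largest change of the 8. It was at 5.62, 2.88 and 3.90 FPKM in the 3 Igf2bp3+/- RNC-seq libraries, all below the lowest RNA-seq value of 12.2. The change was -1.78 ± 0.25 (log2, SE), or 0.291-fold in FPKM (limma adjusted p = 0.000743). Tsks changed by -0.72 ± 0.13, or 0.606-fold (limma adjusted p = 0.00256), with no overlap between the assays.

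The tandem kinases and Tssk4 moved the other way. Tssk1 was at 118, 107 and 110 FPKM in control RNC-seq, a change of 0.52 ± 0.11 (log2, SE; limma adjusted p = 0.00451). Tssk2 changed by 0.45 ± 0.1 (limma adjusted p = 0.0075), a call lost after quantile normalization (0.11, limma adjusted p = 0.441). Tssk4, at 105, 92 and 105 FPKM, changed by 0.50 ± 0.11 (limma adjusted p = 0.00639). For each of the 3 genes every RNC-seq library lay above every RNA-seq library on the deposited scale. How many of all genes part in this way between the assays was not counted, here or for Tssk5 and Tsks.

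The direction of these rises rests on the scale. FPKM summed to 459762 to 509397 in RNA-seq but to 555464 to 624792 in RNC-seq, and scaling all libraries to a common sum, a choice made after seeing this, moved the median of all genes by -0.33. On that scale the changes of Tssk1, Tssk2 and Tssk4 were 0.18, 0.11 and 0.16, with limma adjusted p of 0.181, 0.435 and 0.260, whereas Tssk5 (-2.14) and Tsks (-1.07) stayed past the limit. The share of higher among all genes called fell from 42.5% to 21.3%. Tssk5 and Tsks also passed under each other alternative tried for the control, and with each control library left out.

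The last 3 genes showed no call on the deposited scale. Tssk3 was at 179, 152 and 169 FPKM in control RNC-seq, with a change of 0.24 and a 95% interval from -0.03 to 0.52 (limma adjusted p = 0.136). Tssk6 spread widely, at 169, 277 and 187 FPKM, and its interval ran from -0.33 to 0.48. Camk4 stood at 6.21, 6.22 and 6.44 FPKM, nearly the same as in total RNA, with an interval from -0.29 to 0.33.

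**Figure D2:**
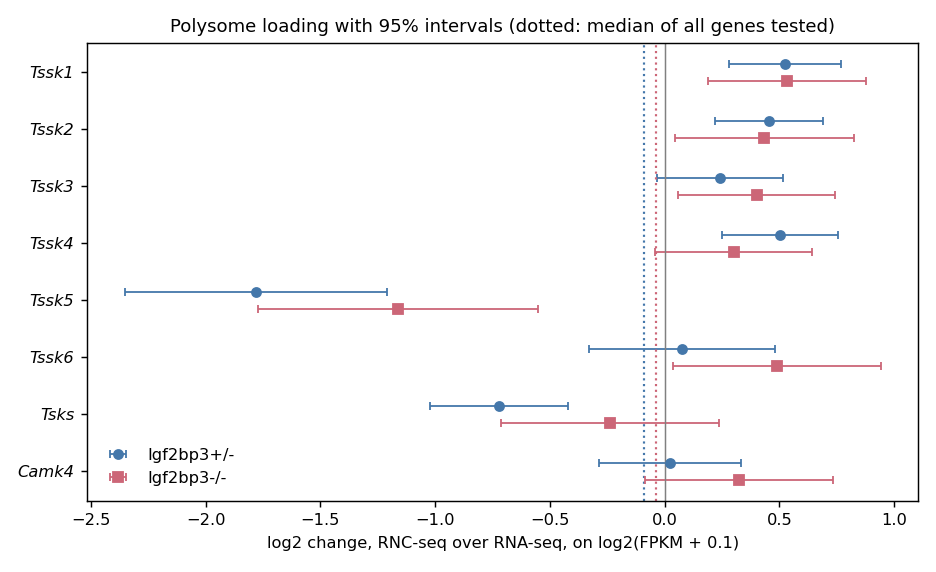
Change from RNA-seq to RNC-seq on log2(FPKM + 0.1) for each gene in Igf2bp3+/- (blue circles) and Igf2bp3-/- (red squares); bars are 95% intervals from limma and dotted lines the median of all genes tested. Tssk5 lies farthest to the left in both genotypes, at -1.78 and -1.16.

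The same comparison in the knockout gave 2 calls, again Tssk5 lower and Tssk1 higher. Of the 8 genes, 1 passed as lower, beside 10.9% of all genes, and 1 as higher, beside 10.1% of all. Tssk5 was at 13.9, 11.6 and 14.0 FPKM in Igf2bp3-/- RNA-seq and at 9.12, 5.12 and 4.19 FPKM in Igf2bp3-/- RNC-seq, with no overlap. Its change was -1.16 ± 0.27 (log2, SE; limma adjusted p = 0.0173). Without RNA-seq replicate 1 or 3, or RNC-seq replicate 3, of the knockout the adjusted p was 0.0718, 0.0686 and 0.0525.

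Tssk1 changed by 0.53 ± 0.15 in the knockout (limma adjusted p = 0.0372), nearly the same size as in the control. That call was lost on the scale with a common sum (0.25, limma adjusted p = 0.249) and after quantile normalization. The same held without any 1 of 4 knockout libraries (RNA-seq replicate 1, 2 or 3, or RNC-seq replicate 1). The limma adjusted p then ran from 0.0734 to 0.174. With replicate number as a block the call was lost too (limma adjusted p = 0.0829). Tsks had a change of -0.24 and a 95% interval from -0.71 to 0.24, and Tssk6 one of 0.49 with an interval from 0.04 to 0.94 (limma adjusted p = 0.112). Tssk2, Tssk3, Tssk4 and Camk4 had changes between 0.30 and 0.43 without a call.

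A longer coding sequence can hold more ribosomes, so each gene was set beside coding genes whose coding length was within 20% of its own. Yet the median change of these neighbours fell as coding length rose, in both genotypes. It went from 0.15 near 804 bases to -0.34 near 1755 in the control, and from 0.10 to -0.25 in the knockout. Tssk5, with 1116 coding bases, was at the 1.71 percentile of 2568 such genes in the control and at the 2.51 percentile of 2666 in the knockout. Tssk1 has nearly the same coding length, 1095 bases, and was at the 85.3 percentile of 2541 genes in the control and the 89.7 percentile of 2643 in the knockout. Tsks has the longest coding sequence of the 8, with 1755 bases, and its neighbours in length were themselves low on polysomes, with a median of -0.34 in the control. Tsks thus sat at the 25.6 percentile there, and at the 51.1 percentile in the knockout. Tssk6 (819 bases) went from the 46.1 to the 79.6 percentile and Camk4 (1407 bases) from the 67.9 to the 86.1 percentile. These percentiles describe the genes' place and carry no test.

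**Figure D3:**
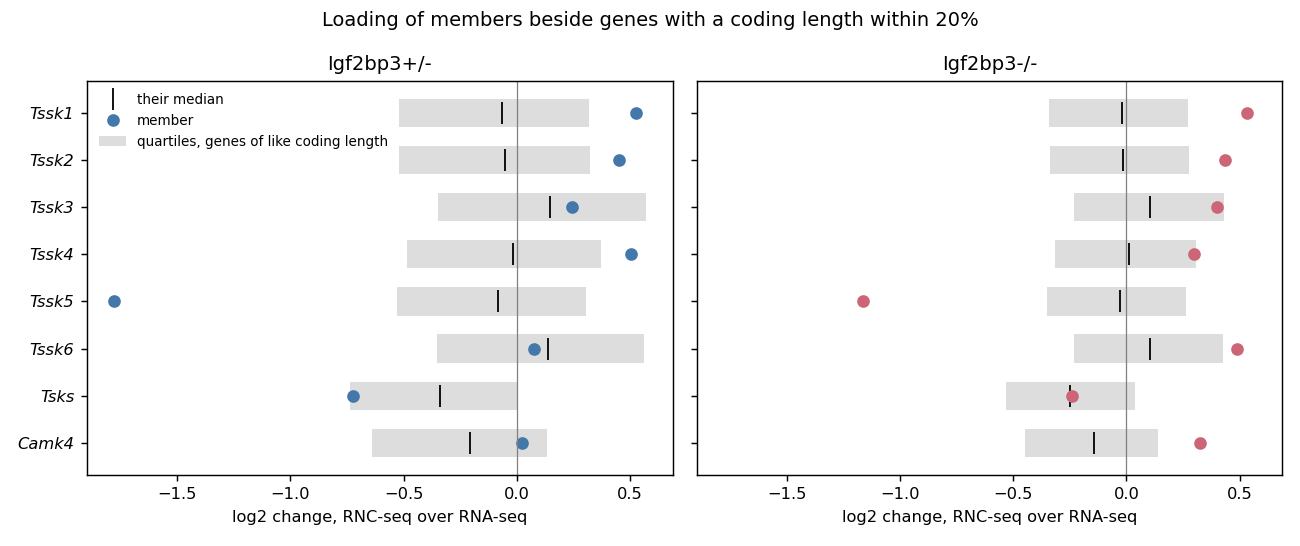
Change from RNA-seq to RNC-seq (log2) of each gene (points) beside the quartiles (grey bars) and the median (black ticks) of coding genes whose coding length lies within 20% of it, in Igf2bp3+/- and Igf2bp3-/-. Tssk5 lies below the grey bar in both genotypes, and Tssk1 and Tssk2 lie above it in both.

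The study asked what changes when IGF2BP3 is lost, first at the level of total RNA. None of the 8 genes passed limma's adjusted p of 0.05 between Igf2bp3-/- and Igf2bp3+/- RNA-seq, beside 0.256% of all genes, and 2 passed an unadjusted 0.05, beside 15.7% of all genes. The 2 were Tssk4 and Tssk1, and they were also the 2 of 8 in which every knockout library lay above every control library, beside 14.1% of all genes. The median change was 0.05 for the 8 as for all genes.

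Tssk4, the kinase of ODF2, was at 88.1, 90.3 and 102 FPKM in Igf2bp3-/- RNA-seq against 69.2 to 71.8 in the control. The difference was 0.40 ± 0.09 (log2, SE), or 1.32-fold, with an unadjusted p of 0.00148 in limma and an adjusted p of 0.152. Tssk1 was at 82.7, 91.4 and 98.7 FPKM against 75.7 to 81.1, a difference of 0.23 ± 0.09 with a limma adjusted p of 0.294. Its tandem neighbour Tssk2 had a difference of 0.13 with an interval from -0.08 to 0.35.

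The other genes stayed near their control level in total RNA. Tssk3 ran from 136 to 166 FPKM in the knockout, Tssk6 from 179 to 214 FPKM and Camk4 from 5.66 to 7.43 FPKM, each overlapping with the control. Tsks had a difference of -0.06, with a 95% interval from -0.25 to 0.12. Tssk5 had a difference of -0.09 with an interval from -0.44 to 0.27.

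On polysomes all 8 genes were higher on average in the knockout on the deposited scale, of which Tssk2 turned to -0.0062 with libraries centred on their median and to -0.03 after quantile normalization, and none passed the test. Beside 0.115% of all genes called, 0 of the 8 passed limma's adjusted p of 0.05, with a smallest value of 0.805, and 0 passed an unadjusted 0.05, beside 6.48% of all genes. A rise was also the rule across the table, since 65.3% of all genes were above 0 in this comparison, with a median of 0.13 against 0.28 for the 8. Every knockout RNC-seq library lay above every control one in 4 of the 8 (Tssk1, Tssk3, Tssk4 and Camk4), beside 9.44% of all genes. With libraries centred, the median of all genes shifted by -0.12, and by -0.14 after quantile normalization, about as much as the deposited median itself. A single entry, CT010467.1, held 15.9%, 19.4% and 18.4% of summed FPKM in the control RNC-seq libraries. In the knockout RNC-seq libraries it held 8.14%, 11.5% and 14.6%. Its part in these differences was not tested.

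Tssk3 was the tightest of the 4, at 194, 195 and 195 FPKM in Igf2bp3-/- RNC-seq against 152 to 179 in the control, a difference of 0.23 with a 95% interval from -0.17 to 0.62. Tssk1 was at 136, 137 and 121 FPKM against 107 to 118. Tssk4 was at 124, 111 and 110 FPKM against 92 to 105. Camk4 was at 8.01, 8.55 and 7.33 FPKM against 6.21 to 6.44, or 1.26-fold on the log scale, with an interval from -0.13 to 0.80.

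The largest mean differences came with the widest spread. Tssk5 differed by 0.53 ± 0.33 (log2, SE), Tssk6 by 0.45 ± 0.25 and Tsks by 0.42 ± 0.24. These values moved with single libraries: Tssk5 was at 0.21 without Igf2bp3-/- replicate 1 and 0.30 without Igf2bp3+/- replicate 2, and Tsks at 0.25 without Igf2bp3-/- replicate 1 and 0.65 without Igf2bp3-/- replicate 3. Tssk6 was at 338, 310 and 212 FPKM in Igf2bp3-/- RNC-seq and Tsks at 352, 301 and 203, so that replicate 3 lay inside the control range for both. Tssk2 was at 479 FPKM in replicate 1 and at 369 and 365 in the others, and without replicate 1 its mean difference was -0.02.

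Translational efficiency (TE), the study's ratio of RNC-seq to RNA-seq FPKM, was compared between genotypes as an interaction over all 12 libraries. None of the 8 passed limma's adjusted p of 0.05 (smallest value 0.716), beside 0.00543% of all genes, and 0 passed an unadjusted 0.05, beside 7.13% of all genes. As ratios of group means, TE went from 0.293 in the control to 0.466 in the knockout for Tssk5, from 0.610 to 0.869 for Tsks and from 1.08 to 1.43 for Tssk6. The interactions were 0.62 ± 0.4 (log2, SE), 0.48 ± 0.26 and 0.42 ± 0.28, with 95% intervals from -0.24 to 1.48, -0.07 to 1.04 and -0.19 to 1.02. Without Igf2bp3-/- RNC-seq replicate 1 the interactions of Tssk5 and Tsks were 0.30 and 0.31, and without Igf2bp3+/- RNC-seq replicate 2 those of Tssk5 and Tssk6 were 0.39 and 0.63. Tssk6 was at 0.27 without Igf2bp3+/- RNC-seq replicate 1. TE of Tssk1 was 1.44 and 1.45 and that of Tssk2 1.37 and 1.36, with intervals of the difference from -0.36 to 0.38 and -0.44 to 0.40. Tssk4 went from 1.42 to 1.23, an interaction of -0.20 with an interval from -0.57 to 0.17. Tssk3 went from 1.18 to 1.32 and Camk4 from 1.02 to 1.25, with interactions of 0.16 (interval from -0.23 to 0.55) and 0.30 (from -0.16 to 0.76). Leaving out 1 library moved Tssk3 to between 0.094 and 0.25.

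**Figure D4:**
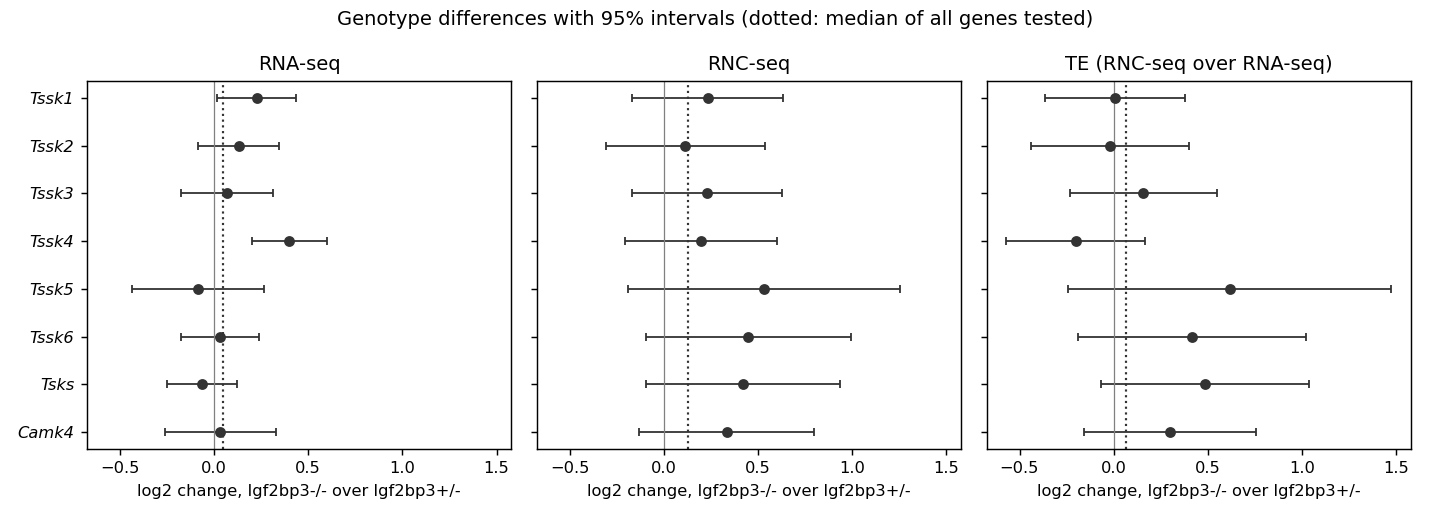
Difference between Igf2bp3-/- and Igf2bp3+/- (log2) in RNA-seq, RNC-seq and TE for each gene, with 95% intervals from limma and the median of all genes tested as a dotted line. In RNC-seq all 8 points lie right of 0 (Tssk2 not once libraries are centred) and all intervals include 0; in RNA-seq the intervals of Tssk4 and Tssk1 lie right of 0.

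Markers of other cell types moved with genotype beside these values. Among 6 Leydig cell markers tested, limma called 3 higher in Igf2bp3-/- RNA-seq (Cyp17a1, Hsd3b1 and Insl3), beside 0.256% of all genes called in either direction. The sum of all 7 in the list ran from 14.6 to 21.5 FPKM in the control and from 46.4 to 52.9 in the knockout. Hsd17b3 was listed at 0 in all 3 control RNA-seq libraries. In RNC-seq the sum ran from 6.23 to 13.9 in the control and from 50.4 to 100.5 in the knockout. Insl3 was called higher there, beside 0.115% of all genes called in either direction. Peritubular and blood markers had 2 of 7 higher each in RNA-seq and Sertoli cell markers 1 of 5. Of the 7 late spermatid markers, 6 were higher on average in Igf2bp3-/- RNC-seq, beside 65.3% of all genes, and 0 passed the test. The sums of the 7 ran from 11517 to 14168 FPKM in the control and from 10416 to 21275 in the knockout. The part of either in the values of the 8 genes was not tested, and in these sorted cells fewer cells that express a gene and less of its RNA per cell cannot be told apart.

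Ratios between genes of the same library do not depend on a factor by which a library is scaled, and the pairs shown were chosen after their values were seen. Tsks, the substrate, was at 4.44, 4.12 and 4.73 times the FPKM of its kinase Tssk1 in control RNA-seq and at 1.51, 2.23 and 1.92 times in control RNC-seq. In the knockout the ratio was 3.74, 3.75 and 3.37 in RNA-seq, below all control libraries, and 2.59, 2.19 and 1.67 in RNC-seq, overlapping with the control. Tssk5 over Tssk1 fell from between 0.151 and 0.231 in control RNA-seq to between 0.0269 and 0.0476 in control RNC-seq. Tssk2 over Tssk1 moved far less, at 3.42 to 3.63 in control RNA-seq and 3.16 to 3.59 in control RNC-seq, which overlap. In the knockout it was 3.21 to 3.31 in RNA-seq, below the control, and 2.69 to 3.53 in RNC-seq, overlapping with the control. How often the ratios of other gene pairs part by genotype in this way was not counted. The size of each ratio rests on the annotated length of Tssk1, whose FPKM would be 2.55 times as large at the RefSeq length. Changes of a ratio between libraries do not move with that length.

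**Figure D5:**
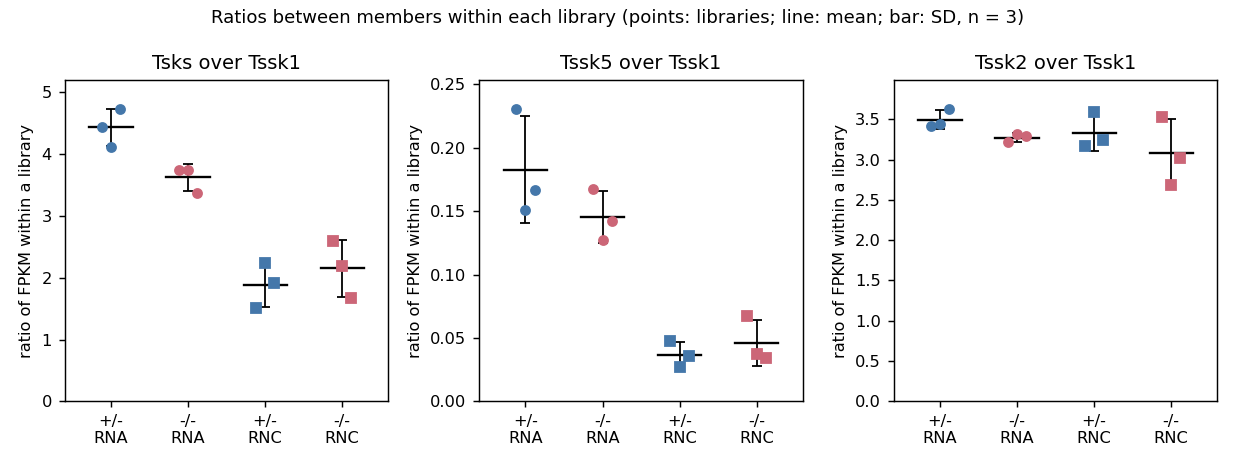
Ratio of FPKM between members within each library for Tsks over Tssk1, Tssk5 over Tssk1 and Tssk2 over Tssk1, on linear axes from 0, in RNA-seq (circles) and RNC-seq (squares) of Igf2bp3+/- (blue) and Igf2bp3-/- (red); points are libraries, the line is the mean and the bar the SD of 3. The first ratio is between 4.12 and 4.73 in control RNA-seq and between 1.51 and 2.23 in control RNC-seq, while the third lies between 2.69 and 3.63 in all groups. The size of every ratio rests on the annotated length of Tssk1.

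Some values carry limits from the gene models. Tssk6 (ENSMUSG00000047654, chr8:69902184-69903518, plus strand, a single exon) overlaps on the opposite strand with other genes over 29.2% of its exonic bases, nearly all of it with Ndufa13, a subunit of respiratory complex I, and the sources used here do not say if reads were counted by strand. Ndufa13 was at 60.7 ± 11 FPKM in control RNA-seq and 120 ± 11 in control RNC-seq (SD, n = 3), and the part of its reads in the Tssk6 values was not tested. Tssk3 (ENSMUSG00000000411, chr4:129489014-129491022, minus strand, 2 exons), Tssk4 (ENSMUSG00000007591, chr14:55650184-55652539, plus strand, 4 exons), Tssk5 (ENSMUSG00000060794, chr15:76371952-76374938, minus strand, 8 exons) and Tsks (ENSMUSG00000059891, chr7:44943204-44958035, plus strand, 11 exons) shared no exonic base with another gene. Tssk5 has 3 annotated transcripts, of which 1 is protein-coding. The gene has 2073 exonic bases and the coding transcript 1518. A gene-level FPKM can hold the other transcripts too, and their part in the low loading of Tssk5 was not tested.

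Among partners and substrates of the TSSKs, 0 of 7 tested genes passed limma's limit between genotypes in RNA-seq, RNC-seq or TE. At an unadjusted 0.05, 2, 0 and 0 passed, beside 15.7%, 6.48% and 7.13% of all genes. On polysomes of the control, on the deposited scale, Tsacc, the co-chaperone of TSSK6, was higher by 0.71 (limma adjusted p = 0.00455) and H2afx, a histone variant phosphorylated in spermatids, by 0.78 (adjusted p = 0.00603, limma). Odf2, the target of TSSK4, changed by -0.96 (limma adjusted p = 0.000478). Hsp90aa1, a chaperone, and Ppp1cc, a phosphatase of spermatids, had changes of -1.03 and -0.53 and also passed as lower. So 2 of 7 were higher, beside 18.6% of all genes, and 3 of 7 lower, beside 25.1% of all. In the knockout Tsacc, H2afx, Odf2 and Hsp90aa1 passed in the same directions, with changes of 0.57, 0.81, -0.68 and -0.92. Tsacc only just passed (limma adjusted p = 0.0499), and the genes of this list were not followed on the common sum. Of all genes, 10.1% passed there as higher and 10.9% as lower. The median of the list was 0.003 in the control, against -0.09 for all genes.

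Of 8 genes around CaMKIV, 7 could be tested, since the activating kinase Camkk1 was below the filter. Between genotypes 0 passed limma's limit in RNA-seq, RNC-seq or TE. At an unadjusted 0.05, 3, 0 and 1 passed, beside 15.7%, 6.48% and 7.13% of all genes. Crem, a transcription activator of spermatids, was at 174, 181 and 157 FPKM in control RNA-seq and 240, 204 and 230 in the knockout, a difference of 0.39 with a limma adjusted p of 0.164. Prm2, the protamine that CaMKIV phosphorylates, had a difference of -0.01 in RNA-seq and 0.21 in RNC-seq. On control polysomes, on the deposited scale, Calm3, a calmodulin gene, and Crem were higher, with changes of 0.66 and 0.55. Camkk2, Creb1 and Prm2 were lower, with changes of -2.24, -0.70 and -0.49. Of all genes, 18.6% passed as higher and 25.1% as lower. Members with rises near that of Crem lost their calls on the common sum, and the genes of this list were not followed there. In the knockout Calm3 alone of the 7 passed, with 0.59, beside 10.1% of all genes as higher and 10.9% as lower.

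Camk4 itself (ENSMUSG00000038128) lies at chr18:32934931-33191228 of GRCm38 on the plus strand, with 11 exons. Calspermin, a calmodulin-binding protein of spermatids, is made from an internal promoter of the same gene, so a gene-level FPKM holds both transcripts and cannot separate them. An antisense gene covers 2.21% of its exonic bases.

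The other protein kinases of male germ cells, a list of 12 of which 11 could be tested (Camk2d was below the filter), were mostly lower on control polysomes. On the deposited scale Aurkc, a meiotic Aurora kinase, was higher by 1.06, and 8 of 11 were lower in limma. Of all genes, 18.6% passed as higher and 25.1% as lower. The largest falls were those of Mast2 at -1.88, Stk36 at -0.996 and Stk31 at -0.80. Cdk16 was at -0.65, Nek2 at -0.61, Prkaca, the catalytic subunit of protein kinase A, at -0.56, Stk33 at -0.50 and Csnk2a2 at -0.48. The median of the 11 was -0.56, against 0.16 for the 8 genes described here and -0.09 for all genes. These groups were not matched for coding length, and loading fell with it over the lengths compared above. In the knockout Aurkc (0.61) passed as higher, beside 10.1% of all genes. Mast2 (-1.24), Stk31 (-0.90) and Nek2 (-0.77) passed as lower, beside 10.9% of all. Between genotypes 0 of the 11 passed in RNA-seq, RNC-seq or TE by limma. At an unadjusted 0.05, 1 in each passed, beside 15.7%, 6.48% and 7.13% of all genes. Mast2, a kinase with a long coding sequence, had a TE ratio of 0.269 in the control, close to that of Tssk5.

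The mean profile of the 8 genes over the 12 libraries, each centred on its own mean, was compared with that of 5397 other genes with a mean of at least 10 FPKM. Serp2 (Pearson r = 0.935), Ankrd60 (r = 0.930) and Rer1 (r = 0.930) had the profiles most similar to that mean. The members themselves did not share a single profile. Tssk1 correlated with Tssk4 at r = 0.93, but with Tssk5 at r = -0.69 and with Tsks at r = -0.47. The 12 points fall into 4 groups that share assay, genotype and scaling, so these values are a description of likeness over libraries and carry no test.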

How the data were processed

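Values were read from the 1 table the authors deposited, which holds FPKM for a gene symbol in each of 12 libraries. By the study's methods and the labels' processing notes, the authors trimmed reads with Trim Galore 0.6.6, aligned them to GRCm38 with HISAT2 and quantified them with StringTie 2.1.7; the annotation release and the use of strand are not given in the sources used here, and labels and methods name different library kits. Of 28668 symbols, 25 turned into dates by a spreadsheet (0.0995% of summed FPKM) were left out. The members are named genes and no value enters the rule, but members and lists were chosen with earlier results of these data known.

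FPKM were not rescaled. The scale was log2(FPKM + 0.1), and tests came from limma 3.58.1, run in R 4.3.3 (intensity trend, two-sided, Benjamini-Hochberg over all genes with a mean FPKM above 0.1). The pseudocount understates changes of low genes. The authors tested counts with DESeq2, and counts were not used here. Genotype was tested within each assay over 6 libraries, TE as the interaction over 12, and RNC-seq against RNA-seq within each genotype. The scripts were tested on simulated data. All 8 members were named in every comparison, and of 3 related lists every gene past the limit except 1 that is not reported here. Gene models came from GENCODE M21. Library profiles correlated at 0.973 to 0.990 among RNA-seq and 0.946 to 0.984 among RNC-seq libraries. The labels name no batch. Alternatives were a pseudocount of 1, no filter or a mean above 1, median centring, quantile normalization, array weights and a replicate block. Others were each library left out, a fit over all 12 libraries for genotype in RNA-seq and RNC-seq, and a common sum. The common sum was chosen after seeing the data.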

Additional observations from a re-analysis of the deposited data

How the results depend on the processing

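No member was called between genotypes in RNA-seq, RNC-seq or TE under any alternative tried. Over those alternatives, limma's adjusted p ranged from 0.0881 to 0.444 for Tssk4 in RNA-seq and from 0.144 to 0.941 for Tsks in TE. In the RNC-seq fit over all 12 libraries, limma's unadjusted p was 0.0373 for Tsks, 0.0410 for Tssk6 and 0.0439 for Camk4. Their limma adjusted p there was 0.365, 0.378 and 0.385. The count of 5 members called in the control loading comparison became 2 on the scale with a common sum and 2 when an unadjusted p under 0.05 and a 1.5-fold change were asked for, was 4 after quantile normalization (without Tssk2) and 6 centred on the median (with Tssk3), and was 5 with each library left out. The count of 2 in the knockout became 1 under quantile normalization, the common sum, the unadjusted and 1.5-fold rule and the replicate block, and ran from 0 to 3 with 1 library left out (0 without Igf2bp3-/- RNA-seq replicate 1 or 3). Centring on the median, Tssk3 passed in both loading comparisons, with 0.40 in the control and 0.44 in the knockout. Of 624 single values recomputed, 567 kept direction and side of the limit, 14 lost a call, 4 gained one and 39 changed sign.

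The changes of sign were these, all in values near 0 or in the loading of Tssk3, Tssk6 and Camk4, and the cause was not tested. In RNA-seq, quantile normalization gave Tssk2 -0.039, Tssk3 -0.085, Tssk6 -0.14 and Camk4 -0.024, the common sum gave Tssk3 -0.0054, Tssk6 -0.042 and Camk4 -0.041, and array weights gave Tssk3 -0.0095 and Camk4 -0.021. With 1 library left out the values ran from -0.18 to 0.078 for Tssk5, -0.018 to 0.13 for Tssk3, -0.016 to 0.11 for Tssk6 and -0.080 to 0.11 for Camk4. In RNC-seq, Tssk2 was -0.0062 centred and -0.025 after quantile normalization, and ran from -0.015 to 0.18 with 1 library left out. In TE, Tssk1 was -0.12 centred and -0.033 after quantile normalization and ran from -0.059 to 0.069, and Tssk2 was 0.012 after quantile normalization, 0.047 on the common sum and 0.045 with array weights and ran from -0.15 to 0.049. In control loading, Tssk6 was -0.24 after quantile normalization, -0.27 on the common sum and -0.011 with array weights and ran from -0.14 to 0.22, and the common sum gave Tssk3 -0.10 and Camk4 -0.32.

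RNA-seq and RNC-seq replicates of one number did not all deviate together (r from -0.10 to 0.21 over 12263 genes), so the numbers were not taken as pairs. The study's methods take RNA-seq input and polysomes from the same extract, but no source used here says that equal numbers mark the same extract. With the replicate block, 4 genes in place of 52 were called in RNA-seq and 31 in place of 22 in RNC-seq, with 0 members in either. Over the other alternatives, apart from the unadjusted rule, the calls among all genes ran from 31 to 84 in RNA-seq, 2 to 48 in RNC-seq and 0 to 1 in TE with all libraries in, and from 9 to 38, 0 to 20 and 1 to 2 with 1 library left out. The level of Tssk1 in control RNA-seq moved from 77.6 to 198 FPKM at the RefSeq length. Depth is unknown, and Tssk5, at about 108 fragments in its shallowest library, is the least precisely measured.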
